A study of Rattus norvegicus with 14 samples.

Results

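Mitochondrial ribosomal protein genes are the nuclear genes, named Mrpl for the large and Mrps for the small subunit, whose proteins are imported into mitochondria and assembled on the mitochondrial ribosomal RNAs. They were taken as every gene whose symbol in the deposited tables was Mrpl or Mrps followed by a number and at most 1 lower-case letter. This gave 75 genes of the 30562 in the tables, under 74 symbols, because Mrps17 was listed under 2 Ensembl identifiers, ENSRNOG00000000926 and ENSRNOG00000066020. The rule uses no expression value, though it was set with earlier results of these data known. Of the 75 genes, 74 passed the filter on low counts and were tested, and the gene that did not was Mrps21l, whose counts lay between 0 and 3 and which was counted in the control and surgical libraries of rat A and the control library of rat E. The rows written mrpl9, mrpl11 and mrpl24 in lower case were not taken by the rule.

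RNA was sequenced from dorsal root ganglia L2 to L5, where the cell bodies of hindlimb sensory neurons lie, in 7 male wild-type (WT) rats. In every rat the extensor digitorum longus, a leg muscle, was grafted in 1 hindlimb (surgical side) onto the saphenous nerve, which carries sensation from the skin of the leg, and the ganglia of the hindlimb without an operation served as the control side. The 6-week rats were A, B and E, and the 8-week rats were D, C, G and H, so that each side had 3 libraries from 6 weeks and 4 from 8 weeks. The control side was thus ganglia of an operated animal, no group came from an animal without an operation, and the ages were not given in the sources used here.

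The mitochondrial ribosome translates the few messages of the mitochondrial genome, all of which encode subunits of the respiratory chain and of ATP synthase. Its protein mass is larger relative to its RNA than in bacteria: beside proteins with bacterial homologues it carries proteins found only in mitochondria. Sensory neurons depend on oxidative phosphorylation along very long axons, and the genes for the mitochondrial ribosome are transcribed in the nucleus of every cell type of the ganglion.

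Total estimated counts were between 18489118 and 28237574 per library, and the 75 genes took 0.186% to 0.299% of them. All 16 markers of sensory neurons were counted in every library, and their summed level per length was 3040 to 18340 TPM (transcript abundance corrected for length and scaled to the library) in the 6-week controls, 1907 to 17180 in the 6-week surgical, 14270 to 26320 in the 8-week control and 10030 to 27420 in the 8-week surgical libraries. Other tissue entered single libraries: the summed level of 10 markers of spinal cord reached 865 TPM in the 6-week surgical group (rat B), where the median was 10.3 TPM, and that of 12 markers of skeletal muscle reached 6199 TPM in the 8-week control group and 32820 TPM in the 8-week surgical group (rats H and C), and 1356 TPM in the 6-week surgical group (rat E). The comparisons below were therefore repeated without rats B, C and H, without rats A and B, whose neuronal markers were low, and with the level of neuronal markers as covariate. In these bulk samples fewer cells of a type and less RNA per cell cannot be told apart.

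Mrpl17, a large-subunit protein with a bacterial homologue, had the highest mean over the libraries at 183 TPM, followed by Mrpl33 at 162, Mrpl54 at 112 and Mrpl20 at 106 TPM. The lowest means were those of Mrps21l at 0.904, Mrps17 ENSRNOG00000000926 at 1.17, Mrpl40 at 9.98 and Mrpl57 at 10.5 TPM. The low Mrps17 gene had 9 to 64 counts per library, against 362 to 586 for ENSRNOG00000066020 (mean 19.97 TPM), and how the quantification divided reads between these 2 loci is uncertain. The summed level of all 75 genes was 2878 ± 805 TPM (SD, n = 3) in the 6-week controls, 2659 ± 668 (n = 3) in the 6-week surgical, 3714 ± 228 (n = 4) in the 8-week control and 3352 ± 307 (n = 4) in the 8-week surgical libraries. TPM is a share of the library, in which other transcripts also differed. Genes named for the mitochondrial genome averaged 275800, 289900, 194200 and 195500 TPM in these groups, in the same order. Haemoglobin genes averaged 105700, 107000, 56370 and 85900 TPM. As a share of counts the 75 genes averaged 0.254%, 0.221%, 0.259% and 0.245%. Across the 14 libraries the coefficient of variation of the level was 10.5% for Mrpl34, 47.2% for Mrps18c, 73.5% for the low Mrps17 gene and 216% for Mrps21l, and it was between the first and the second of these values for all the others.

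**Figure D1:**
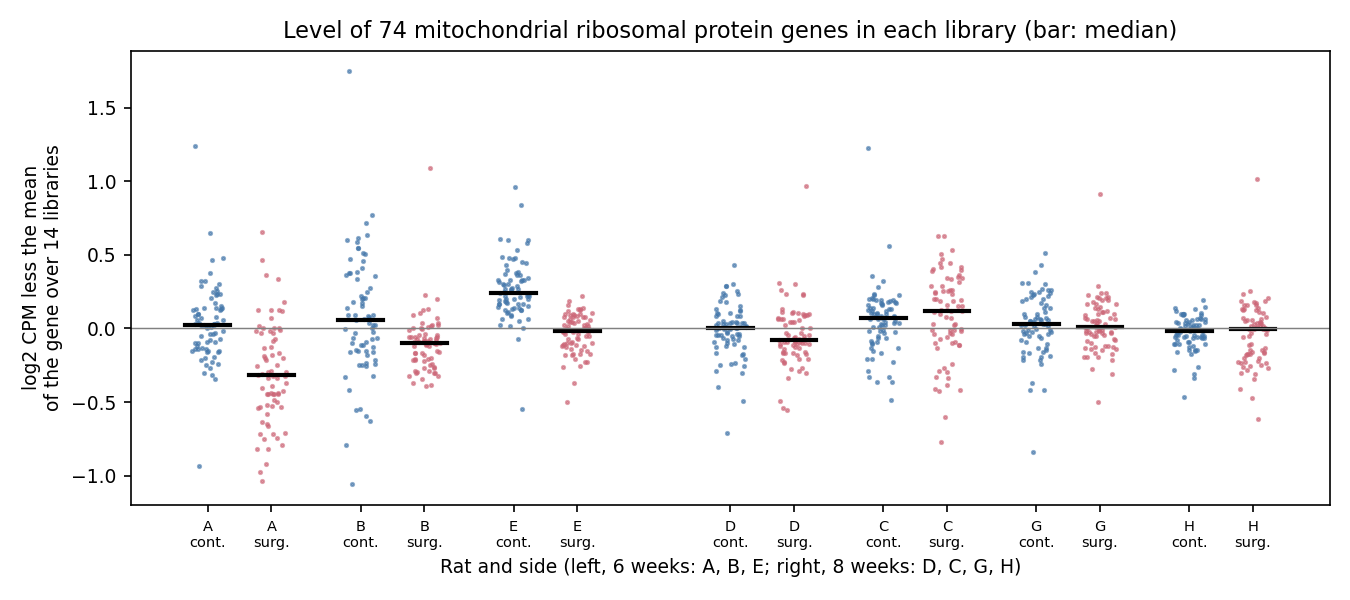
Level of the 74 mitochondrial ribosomal protein genes tested in each of the 14 libraries, as log2 CPM (counts scaled to the library total after TMM adjustment) less the mean of the gene over the libraries (vertical axis), for control (blue) and surgical (red) libraries of each rat (horizontal axis); points are genes and bars are medians. The median was highest in the control library of rat E (0.24), and rat A's surgical library had the lowest (-0.32), and the 8 libraries of the 8-week rats had medians between -0.08 and 0.12.

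Apart from the barely counted Mrps21l and the low Mrps17 gene, Mrps18c varied most between libraries. It encodes the small-subunit protein that corresponds to bacterial S18, and it has a pair of relatives that took up other places in the mitochondrial ribosome: Mrps18b, a small-subunit protein, and Mrps18a, which sits in the large subunit despite its name. In the 6-week controls Mrps18c had 91.8 TPM in rat A, 106 in rat B and 99.2 in rat E. In the 8-week controls it had 36.1 TPM in rat D, 39.9 in rat C, 49.2 in rat G and 39.3 in rat H. The groups did not overlap: every 6-week control lay above every 8-week control. The log2 difference, 8 less 6 weeks, was -1.87 (SE 0.20), and the adjusted p of edgeR's quasi-likelihood test with Benjamini-Hochberg adjustment over 16346 genes was 0.0344. Mrps18c alone, 1 of the 74 genes, was past the threshold of 0.05 in this comparison, where 25 of all genes passed (0.153%), 3 of them higher (0.0184%) and 22 lower (0.135%) at 8 weeks.

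The surgical libraries gave a smaller difference for Mrps18c. At 6 weeks they held 48.6 TPM in rat A, 40.6 in rat B and 59.6 in rat E, each below the control of the same rat. At 8 weeks they held 36.5 TPM in rat D, 30.9 in rat C, 40.2 in rat G and 37.7 in rat H. The 8-week surgical libraries thus lay below the 6-week surgical ones without overlap, with a log2 difference of -0.72 (SE 0.21, adjusted p 0.671 in edgeR), which did not pass.

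Neither relative of Mrps18c passed the edgeR test on all libraries between the control groups, and both had positive differences. Mrps18b had 27.5 TPM in rat A, 18.6 in rat B and 39.7 in rat E among the 6-week controls, and 56.1 in rat D, 52.4 in rat C, 63.0 in rat G and 47.0 in rat H at 8 weeks. Its TPM lay higher at 8 weeks without overlap. In TMM-scaled CPM the groups overlapped. On the log2 scale, less the mean of the gene, the 6-week control of rat E was at 0.05. The 8-week control of rat H was at 0.017. The log2 difference of Mrps18b in the count model was 0.43 (SE 0.18, adjusted p 0.154 in edgeR). Mrps18b was called higher by limma on log2(TPM + 1), at 0.96 (adjusted p 0.0491), and by edgeR without rat E, at 0.65 (adjusted p 0.0268). All genes had a median of 0.44 in that limma setting, and edgeR without rat E called 6388 genes of all kinds. These calls are therefore not read as particular to Mrps18b. Mrps18a had 48.6 TPM in rat A, 44.5 in rat B and 87.4 in rat E at 6 weeks, and 99.5 in rat D, 99.8 in rat C, 111 in rat G and 80.6 in rat H at 8 weeks. These groups overlapped, and the log2 difference of Mrps18a was 0.13 (SE 0.15, adjusted p 0.54 in edgeR). As a ratio within each library, which does not depend on the scaling of the library, the TPM of Mrps18c over that of Mrps18b was 3.34 in rat A, 5.67 in rat B and 2.5 in rat E among the 6-week controls and between 0.643 and 0.838 in the 8-week controls. In the surgical libraries that ratio was between 1.29 and 3.04 at 6 weeks and between 0.68 and 0.871 at 8 weeks.

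**Figure D2:**
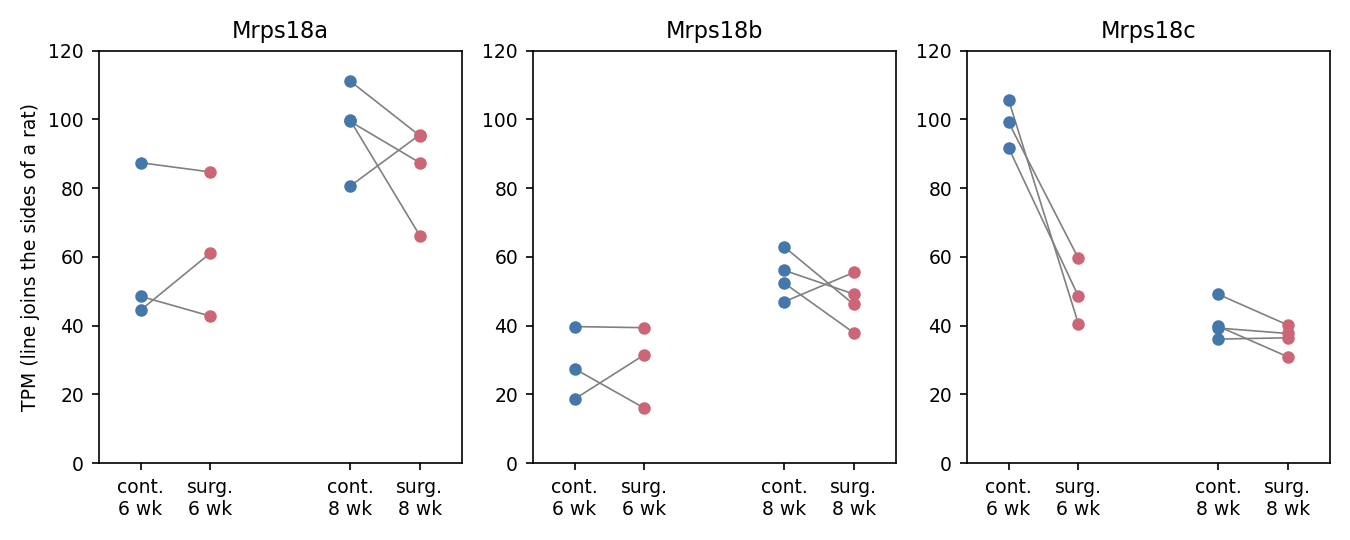
Level of Mrps18a, Mrps18b and Mrps18c in TPM (vertical axis) in the control (blue) and surgical (red) libraries at 6 and 8 weeks (horizontal axis); points are libraries and each line joins the sides of a rat. Mrps18c lay between 91.8 and 106 TPM in the 6-week controls and between 30.9 and 59.6 TPM in the other 11 libraries.

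The neuronal marker level moved with the same groups: it was higher at 8 than at 6 weeks on the control side by 1.11 on the log2 scale (exact two-sided permutation p 0.0571, adjusted p 0.171 over 12 library tests). For Mrps18c the log2 difference between the control groups was between -1.96 and -1.58 when each rat was left out in turn, with adjusted p between 0.0121 (without rat E) and 0.192 (without rat G), and leaving out any rat other than E ended the call. Without rats B, C and H, which left rats A and E against D and G, it was -1.65 (adjusted p 0.327). Without rats A and B it was -1.45, and no p is given because rat E alone was left at 6 weeks. With the level of neuronal markers as covariate it was -1.43 (adjusted p 0.0449), and with the trend of transcript length removed it was -1.42 (adjusted p 0.061).

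The promoters of the Mrps18 genes and of Mrpl57, which followed Mrps18c in p in the same comparison, are printed so that the relatives, whose values differ, can be compared in the sequence around their starts. RefSeq promoters of the assembly GRCr8, from 250 bases before to 50 after the annotated start (300 bases), were found for 58 of the 74 symbols. They were searched on both strands for GCGCA and GCGC separated by any 1 base, a core of nuclear respiratory factor 1 (NRF1) sites, for CCGGAAG, a core of ETS and GABP sites, and for AAGATGGC, a core of YY1 sites. Each sequence reads along the strand of its gene, with matches on either strand in capitals: Mrps18a at chr9:22367331-22367630 (minus strand), Mrps18b at chr20:2842756-2843055 (plus strand), Mrps18c at chr14:9122857-9123156 (minus strand) and Mrpl57 at chr15:36086207-36086506 (plus strand).
Mrps18a: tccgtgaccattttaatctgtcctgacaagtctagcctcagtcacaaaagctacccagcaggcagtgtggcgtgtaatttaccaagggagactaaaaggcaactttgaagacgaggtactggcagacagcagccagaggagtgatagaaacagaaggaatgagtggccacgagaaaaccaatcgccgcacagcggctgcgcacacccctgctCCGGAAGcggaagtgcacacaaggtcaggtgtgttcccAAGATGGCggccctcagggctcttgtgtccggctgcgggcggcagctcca
Mrps18b: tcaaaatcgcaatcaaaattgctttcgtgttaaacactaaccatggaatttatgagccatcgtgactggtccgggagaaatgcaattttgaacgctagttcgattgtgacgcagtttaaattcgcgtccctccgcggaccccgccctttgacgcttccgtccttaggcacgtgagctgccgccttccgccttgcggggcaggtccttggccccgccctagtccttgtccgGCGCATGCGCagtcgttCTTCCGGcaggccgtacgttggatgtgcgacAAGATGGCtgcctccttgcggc
Mrps18c: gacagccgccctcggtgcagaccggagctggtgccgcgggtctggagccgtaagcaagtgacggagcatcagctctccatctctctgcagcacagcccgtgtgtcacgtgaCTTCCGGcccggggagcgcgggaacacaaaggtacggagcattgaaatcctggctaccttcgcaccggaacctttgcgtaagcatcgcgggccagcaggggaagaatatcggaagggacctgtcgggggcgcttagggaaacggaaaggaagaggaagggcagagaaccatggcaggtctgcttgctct
Mrpl57: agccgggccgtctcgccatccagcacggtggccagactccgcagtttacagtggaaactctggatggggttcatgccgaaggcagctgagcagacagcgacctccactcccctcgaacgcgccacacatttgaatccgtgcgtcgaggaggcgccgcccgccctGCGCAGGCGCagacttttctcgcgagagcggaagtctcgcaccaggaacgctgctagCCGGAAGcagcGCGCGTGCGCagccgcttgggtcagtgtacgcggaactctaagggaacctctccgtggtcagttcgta

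The Mrps18b window held a match to each of the 3 motifs, the Mrps18a window an ETS and a YY1 match, the Mrps18c window a single ETS match at -139 to -133 relative to the start, and the Mrpl57 window a pair of NRF1 matches and an ETS match. Over the group, 32 of the 58 promoters (55.2%) held at least 1 of the motifs, against 15.5% of 27457 promoters of all genes and 46.8% of 62 promoters of cytosolic ribosomal protein genes. The NRF1 core was in 9 (15.5%; all genes 4.71%), the ETS core in 20 (34.5%; all genes 9.22%) and the YY1 core in 14 (24.1%; all genes 3.44%). The base composition of the promoters was not matched, and no binding was measured.

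At 6 weeks the mitochondrial ribosomal protein genes mostly had lower values on the surgical than on the control side of the same rats, and no single gene passed the test in edgeR. Of the 74 genes, 72 had a negative log2 difference, surgical less control (51% of the 17035 genes tested), with a median of -0.29 against -0.01 for all genes. In edgeR 0 of the 74 and 0 of all genes passed an adjusted p of 0.05 (0%); DESeq2 called 2 of the 74 and 44 of all, and limma on log2 TPM called 0. At an unadjusted p under 0.05 there were 11 of the 74, all lower, where 2.11% of all genes were lower and 1.09% higher at that level (3.21% in either direction). Of the 74 genes, 49 were lower on the surgical side in each of the 3 rats (13.2% of all genes). On log2(TPM + 1) the median was -0.07 with 49 of 75 negative (Mrps21l passed the TPM filter), where all genes had a median of 0.16, so the group less all genes was at -0.23 on that scale and at -0.28 in the count model.

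Mrps18c led this comparison, with a log2 difference of -1.20 (SE 0.26), from the 6-week levels given above, and an unadjusted p of 0.00205 (adjusted p 0.999 in edgeR, 0.035 in DESeq2). Mrpl1, which forms the mobile stalk next to the exit site for transfer RNA, had 31.2, 22.2 and 46.9 TPM on the control side of rats A, B and E and 12.1, 21.1 and 29.7 on their surgical side. It was lower on the surgical side in 3 of 3 rats, while the groups overlapped, and its log2 difference was -0.90 (SE 0.21; adjusted p 0.999 in edgeR, 0.0496 in DESeq2). Mrps33, a small-subunit protein with no bacterial homologue, had 82.3, 81.2 and 135 TPM on the control side of these rats and 59.9, 79.9 and 101 on the surgical side. Its log2 difference was -0.52 (SE 0.14), again lower in 3 of 3 rats with overlapping groups. The next members were Mrps16, a small-subunit protein mutated in a human disorder of the respiratory chain, at -0.46 (SE 0.14), Mrpl20 at -0.53 (SE 0.17) and Mrpl57 at -0.66 (SE 0.22). Mrps36, which despite its name is a subunit of the oxoglutarate dehydrogenase complex (Kgd4), was at -0.37 (SE 0.15). All of these had an adjusted p of 0.999 in edgeR.

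Large- and small-subunit genes lay at similar values. In the classes below, Mrps18a and Mrps18b, the relatives of Mrps18c, were counted with the proteins found only in mitochondria. The median log2 difference at 6 weeks was -0.29 over the 27 large-subunit genes with bacterial homologues (27 negative), -0.26 over the 19 found only in mitochondria (19 negative), -0.32 over the 17 small-subunit genes with bacterial homologues (15 negative) and -0.24 over the 10 found only in mitochondria (10 negative). Among genes with further roles, Mrpl12, which also binds the mitochondrial RNA polymerase, was at -0.37 (SE 0.17), Mrpl58, a peptidyl-tRNA hydrolase built into the large subunit, at -0.09 (SE 0.17), and Mrps30, a large-subunit protein despite its name, at -0.35 (SE 0.20). Mrpl44 and Mrpl45, which lie near the exit of the peptide tunnel, were at -0.00 (SE 0.20) and -0.13 (SE 0.16). The positive values were those of Mrps2, at 0.09 (SE 0.20), and of the low Mrps17 gene, at 0.97 (SE 0.76).

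At 8 weeks no gene of the group passed the test between the sides. The 74 genes had a median of -0.00 (all genes 0.01), 38 were negative (49% of all genes), and the largest single values were -0.27 for Mrps10 and 0.91 for the low Mrps17 gene. In edgeR 0 of the 74 and 0 of all genes passed (0%), with 0 of the 74 at an unadjusted p under 0.05 (1.06% of all genes) and 5 lower on the surgical side in each of the 4 rats (4.2% of all genes); DESeq2 called 4 genes, 0 of them in this group, and limma 0. Mrps18c was at -0.06 (SE 0.22) and Mrpl1 at -0.19 (SE 0.18). On log2(TPM + 1) 72 of 75 genes, Mrps21l included, were negative, with a median of -0.13 beside -0.10 for all genes.

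The test of the difference between the side effects at the 2 times called 0 of 17035 genes in edgeR (0%), 5 in DESeq2 and 0 in limma, and none of these calls was a mitochondrial ribosomal protein gene. The change from 6 to 8 weeks in the surgical-less-control difference was positive for 70 of the 74 genes, with a median of 0.25 (all genes 0.05). On log2(TPM + 1) the median over 75 genes turned to -0.09 (all genes -0.23), and with the length trend removed it was 0.04 (all genes 0.03). Mrps18c, at 1.14 (SE 0.34, unadjusted p 0.0108), and Mrpl1, at 0.71 (SE 0.27, unadjusted p 0.0318), were the 2 genes with an unadjusted p under 0.05 (1.48% of all genes, 0.839% higher and 0.64% lower), and both had an adjusted p of 1. A difference of the side effect between 6 and 8 weeks is therefore not shown for any of the 74 genes.

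Over both times together, 70 of the 74 genes were negative (49.9% of all genes), with a median of -0.13 (all genes 0.00). In edgeR 0 genes passed (0%), with 2 of the 74 at an unadjusted p under 0.05 (2.42% of all genes, 0.963% higher and 1.46% lower), and DESeq2 called 6 genes, 0 of them in this group; limma called 0. Mrps33 was lower on the surgical side in 7 of 7 rats in TMM-scaled CPM, with a log2 difference of -0.33 (SE 0.10, unadjusted p 0.0108, adjusted p 1). In TPM, Mrps33 was lower in 6 rats and in rat H it was 89.9 on the control and 93.5 on the surgical side. Mrpl42, a large-subunit protein found only in mitochondria, was also lower in 7 of 7 rats in TMM-scaled CPM, at -0.18 (SE 0.09). In TPM Mrpl42 was higher on the surgical side in rat B (57.6 control, 76.3 surgical) and rat H (98.2 and 99.2), so the count of rats depends on the scaling. In TMM-scaled CPM 4 genes of the group were lower in every rat (0.751% of all genes). Mrpl1 was at -0.50 (SE 0.18) and Mrps18c at -0.54 (SE 0.25).

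Each rat was also read on its own. The median log2 difference over the 74 genes was -0.30 in rat A, with 69 genes lower on the surgical side, -0.17 in rat B, with 53 lower, and -0.31 in rat E, with 72 lower. At 8 weeks the medians were -0.05 in rat D, 0.04 in rat C, -0.04 in rat G and -0.05 in rat H, with 51, 33, 45 and 43 genes lower. The 6-week rats all lay below the 8-week rats. Marker levels differed between the sides in some rats, in both directions: the neuronal marker level, surgical less control, was -1.96 in rat A, 1.11 in rat B, -0.05 in rat E and -0.93 in rat C, and the skeletal muscle marker level was 4.65 in rat E, 8.82 in rat C and -6.67 in rat H, on the log2 scale. The 6-week median was -0.29 without rats A and B, from rat E alone, which is then assumed to vary like the 8-week rats. It was -0.29 without rats B, C and H and -0.27 with the neuronal covariate. These settings all kept rat E, with its skeletal muscle markers. With each rat left out in turn the median was -0.29 to -0.25. No setting left out both rats B and E, so the part of other tissue in the 6-week median was not tested.

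**Figure D3:**
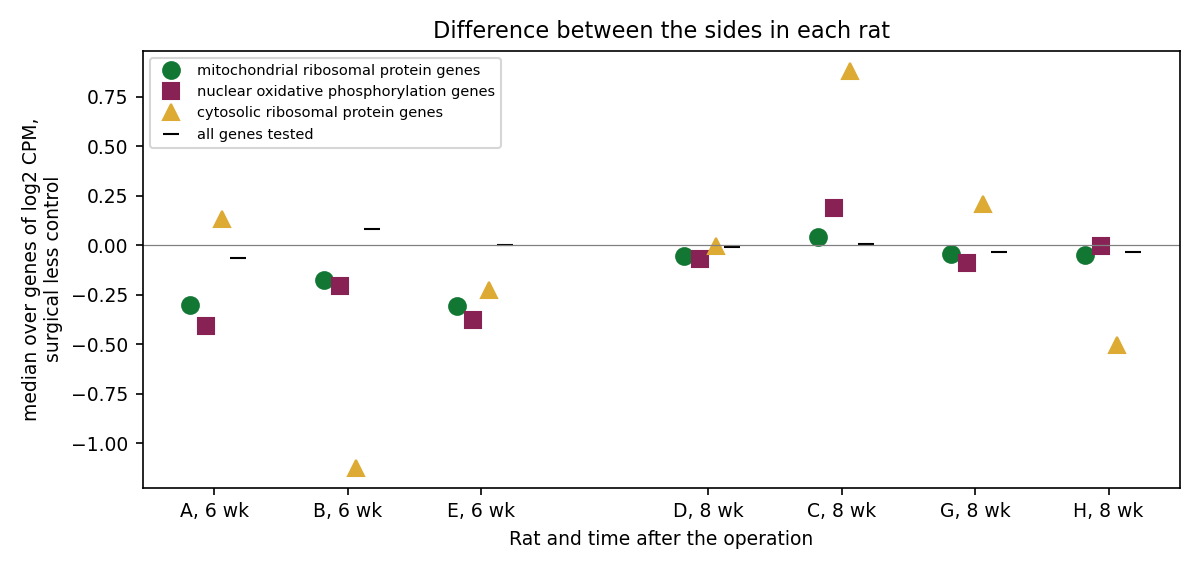
Median over genes of the difference in log2 CPM, surgical less control (vertical axis), in each rat (horizontal axis), for mitochondrial ribosomal protein genes (circles), nuclear oxidative phosphorylation genes (squares), cytosolic ribosomal protein genes (triangles) and all genes tested (dashes). The mitochondrial ribosomal medians lay between -0.31 and -0.17 in the 6-week rats and between -0.05 and 0.04 in the 8-week rats.

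Most of these genes have short transcripts, and in some comparisons the differences ran with transcript length. Dividing the estimated count by TPM gave a length for each gene, relative to the others and set to 1 at the median gene, which for the 74 genes ran from 0.101 for Mrpl33, 0.152 for Mrpl23, 0.158 for Mrps33 and 0.177 for Mrpl42 up to 0.912 for Mrpl40, 0.947 for Mrpl16, 1.06 for Mrpl41 and 1.14 for Mrpl57. At 6 weeks Spearman's rho between relative length and the log2 difference between the sides was 0.35 over the 74 genes and 0.41 over 15910 genes of all kinds, as a description across genes that share the same libraries. The rats differed: rho over the 74 genes was -0.26 in rat A, 0.54 in rat B and 0.18 in rat E. Over all genes it was 0.07, 0.30 and 0.33 in these rats. The median over the group was -0.33 in its 19 shortest genes (19 negative) and -0.15 in its 19 longest (17 negative). Among all genes the shortest of 20 length bins had a median of -0.32. When the trend with length was removed within each library, the 6-week median of the group was -0.04 (all genes 0.01), with 44 of 74 negative. Mrps18c kept -0.88, Mrpl1 -0.68 and Mrpl57 -0.70 under that removal, and Mrps33 had -0.16. At 8 weeks rho was 0.04 over the group and -0.02 over all genes.

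The relation to length was also read in each library. Per library, rho between relative length and the level of a gene less its mean was -0.20 ± 0.02 (SD, n = 3) over all genes in the 6-week controls, 0.09 ± 0.13 (n = 3) in the 6-week surgical, 0.07 ± 0.07 (n = 4) in the 8-week control and 0.07 ± 0.12 (n = 4) in the 8-week surgical libraries. The 8-week controls exceeded the 6-week controls by 0.26, with an exact two-sided permutation p of 0.0286, the smallest that 3 against 4 libraries allow, and 0.171 after adjustment over 12 library tests. Surgical less control over the 7 rats was 0.12 ± 0.21 (exact sign flips, p 0.172). The 6-week controls enter both the 6-week side comparison and the control-side time comparison.

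**Figure D4:**
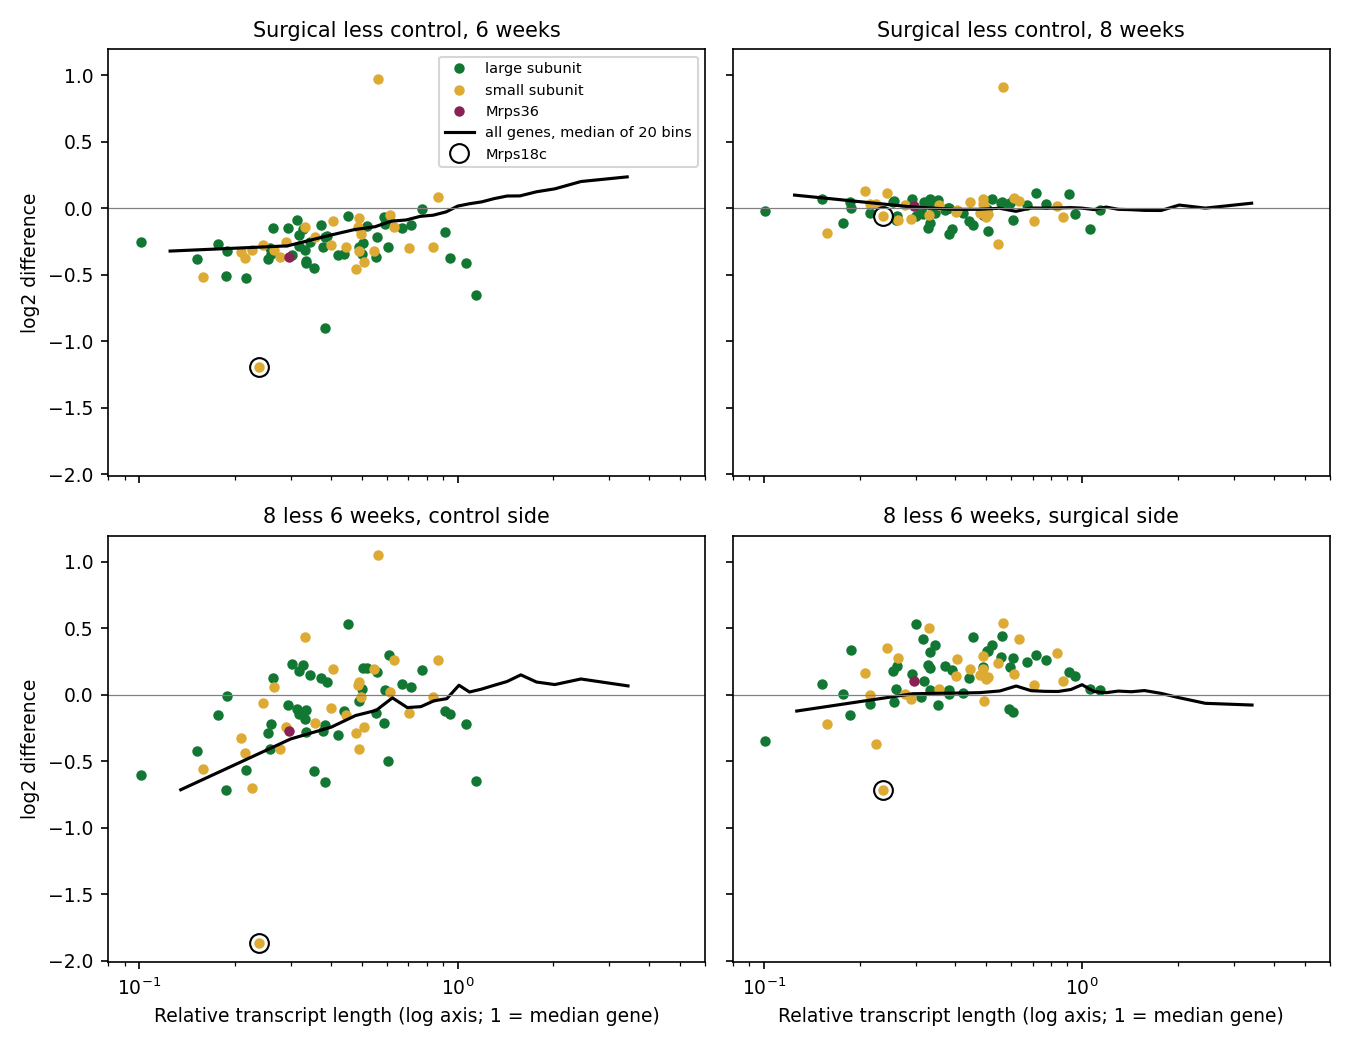
Log2 difference (vertical axis) against relative transcript length (horizontal log axis, 1 is the median gene) for large-subunit (green) and small-subunit (yellow) genes and Mrps36 (purple) in 4 comparisons; the line joins the medians of 20 length bins of all genes, and a ring marks Mrps18c. Short genes lay lower in the 6-week side comparison and in the control-side time comparison (rho 0.35 and 0.40 over the 74 genes), and Mrps18c lay below the line of all genes in both.

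Between 6 and 8 weeks on the control side the group as a whole divided by length, and its direction depended on the unit. In the count model 47 of 74 genes were negative, 8 less 6 weeks (53.5% of all genes), with a median of -0.12 (all genes -0.06). The 19 shortest genes had a median of -0.41 (17 negative) and the 19 longest 0.02 (9 negative), and rho with length was 0.40 over the group and 0.22 over all genes. With the length trend removed the median was 0.13 (all genes -0.02), and on log2(TPM + 1) it was 0.48 beside 0.44 for all genes, so no direction is given for the group in this comparison. At an unadjusted p under 0.05 there were 17 genes lower (17.4% of all genes) and 1 higher (13.9%; either direction 31.2%), and 19 genes lay lower and 2 higher at 8 weeks without overlap (12.7% and 12.2% of all genes).

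Apart from Mrps18c, whose difference was negative in every setting run, the members with the smallest p in this comparison were mostly short genes, with Mrpl57 as an exception. Mrpl57, the longest of the group by relative length, had 10.6, 9.96 and 14.3 TPM in the 6-week controls A, B and E and 10.8, 11.3, 13.4 and 9.68 in the 8-week controls D, C, G and H. The groups overlapped in TPM, while in CPM every 8-week control lay below every 6-week control, and the difference was -0.65 (SE 0.13, adjusted p 0.0815 in edgeR). Mrpl54 was at -0.72 (SE 0.15, adjusted p 0.0815), Mrps33 at -0.56 (SE 0.12, adjusted p 0.0843) and Mrps6 at -0.70 (SE 0.17, adjusted p 0.0888). On log2(TPM + 1) Mrps33 turned to 0.06, and with the length trend removed it was at 0.00. In the other direction Mrpl10, part of the stalk that recruits translation factors, was at 0.30 (SE 0.14, adjusted p 0.168), Mrpl38 at 0.53 (SE 0.24, adjusted p 0.174) and Mrps2 at 0.26 (SE 0.14, adjusted p 0.217). On log2(TPM + 1) limma called Mrpl10 (0.89, adjusted p 0.0491) and Mrps2 (0.81, adjusted p 0.0495) higher, and without rat E edgeR called Mrpl10, Mrpl38 and Mrps2 higher (adjusted p 0.0206 to 0.0308). DESeq2 called 11 of the 74 genes, all lower. It called 3133 of 16346 genes of all kinds (1565 higher and 1568 lower). In either direction that share was no smaller than the share in the group. Among lower calls alone the share in the group was larger. Without rat E edgeR called 19 of the 74, 10 of them higher and 9 lower, and 6388 genes of all kinds. These counts are not read as a result about the group. Leaving out any other rat called 0 of the 74.

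On the surgical side 0 genes passed between 6 and 8 weeks in edgeR (0% of 16606), DESeq2 called 8 and limma 5, and none was in this group. Here 60 of the 74 genes were positive, 8 less 6 weeks (49.5% of all genes were negative), with a median of 0.15 (all genes 0.01). At an unadjusted p under 0.05 there were 3 genes higher (1.68% of all genes) and 1 lower (4.88%), 4 in either direction (6.56%). Without overlap 10 lay higher and 2 lower at 8 weeks (5.12% of all genes each way, 10.2% in all). Mrpl55, a large-subunit protein, had 16.0 TPM in rat A, 30.4 in rat B and 37.0 in rat E at 6 weeks and 52.3 in rat D, 44.04 in rat C, 42.8 in rat G and 46.9 in rat H at 8 weeks. Its groups did not overlap, and its log2 difference was 0.53 (SE 0.21, adjusted p 0.671 in edgeR), followed by Mrpl4 at 0.44 (SE 0.18) and Mrps18b at 0.50 (SE 0.21). The median of the group was 0.02 (all genes 0.06) without rats A and B, in whose libraries the neuronal markers were low. That setting left rat E alone at 6 weeks. The median was 0.07 (all genes -0.00) with the neuronal covariate and 0.14 (all genes -0.05) without rats B, C and H. The part of the neuronal level in these values was not tested.

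**Figure D5:**
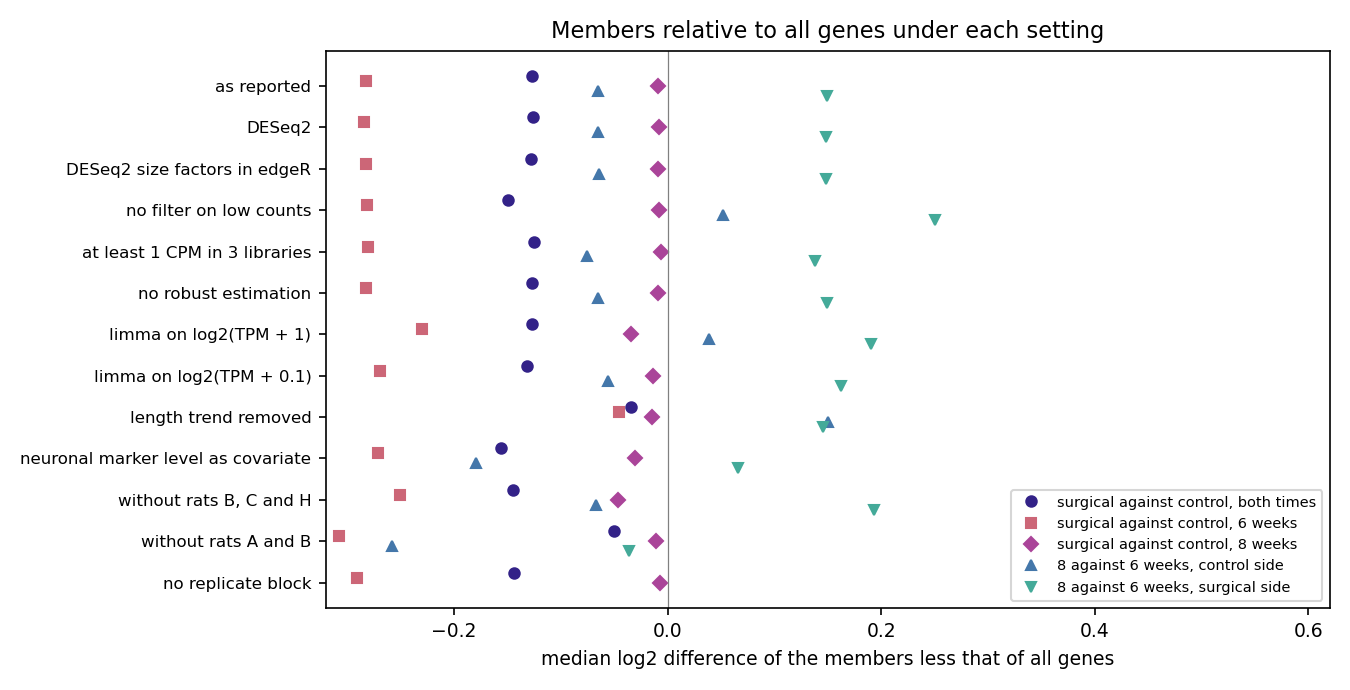
Median log2 difference of the mitochondrial ribosomal protein genes less that of all genes (horizontal axis) under each setting of the processing (vertical axis) for 5 comparisons. The 6-week side comparison lay at -0.28 as reported and at -0.05 with the length trend removed, and the control-side time comparison changed sign between settings.

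Genes that work with these proteins were read from the same fits. Of 4 further mitochondrial ribosome proteins that do not carry an Mrp name, Chchd1, a small-subunit protein, was lower at 8 than at 6 weeks on the control side at -1.47 (SE 0.17, adjusted p 0.0347 in edgeR); Dap3, Ptcd3 and Gadd45gip1 did not pass, at 0.11, 0.04 and -0.21. Among 10 genes that handle mitochondrial messages, Slirp, which with Lrpprc stabilises them, was also lower at -1.10 (SE 0.12, adjusted p 0.0344), while Lrpprc itself was at 0.94 (SE 0.25, adjusted p 0.0969). In the 6-week side comparison, which shares the 6-week controls, Chchd1 was at -1.06 (SE 0.22) and Slirp at -1.07 (SE 0.15), each with an adjusted p of 0.999. With the length trend removed Chchd1 and Slirp were at -0.81 and -0.45 between the control groups, and 0 genes of any kind passed.

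The other parts of mitochondrial translation had 0 calls in any comparison by edgeR. Between the control groups the 26 assembly factors tested had a median of 0.00 (13 negative), the 13 translation factors 0.00 (6 negative) and the 19 mitochondrial tRNA synthetases 0.13 (1 negative), against -0.06 for all genes. At an unadjusted p under 0.05 there were 2 higher and 4 lower assembly factors, 2 higher translation factors and 4 higher synthetases, where 13.9% of all genes were higher and 17.4% lower. The elongation factors Tufm and Tsfm were at 0.57 (SE 0.21) and 0.52 (SE 0.17), and the alanyl-tRNA synthetase Aars2 was at 0.73 (SE 0.22), with adjusted p between 0.111 and 0.134. In the 6-week side comparison the medians of these lists were -0.10, -0.12 and -0.03.

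Nuclear oxidative phosphorylation genes, whose proteins work with those made by the mitochondrial ribosome, and cytosolic ribosomal protein genes were read beside the group. The 77 nuclear oxidative phosphorylation genes tested had a 6-week side median of -0.32 (73 negative), close in value to that of the mitochondrial ribosomal genes, and -0.00 at 8 weeks. Between the control groups 5 of 76 were called lower by edgeR (Ndufa6, Cox7b, Atp5f1e, Atp5mg and Atp5mk), at -1.81 to -1.33 (0.135% of all genes were called lower), with a median over the list of -0.09. With the length trend removed edgeR called 0 genes of any kind, and with a rat other than E left out it called 0 or 1. The 71 cytosolic ribosomal protein genes tested had a median of -0.41 in the 6-week side comparison (70 negative). By rat the median was 0.13 in rat A, -1.13 in rat B and -0.23 in rat E. In every 6-week rat 8 of the 71 were lower on the surgical side (13.2% of all genes). At 8 weeks the side median was 0.16 (3 negative). Between the control groups the median was -0.86 (71 negative, 0 called by edgeR). At an unadjusted p under 0.05, 66 were lower there, as were 17.4% of all genes. No test of the difference between these lists was made.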

How the data were processed

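Poly(A) or ribosome-depleted RNA (the labels name both) of 14 ganglion samples was sequenced. Reads were quantified by the authors with Salmon after FastQC and Trim Galore, and DESeq2 was named too, per the submitters' processing notes. The versions and the genome build are not given in the sources used here. The deposited tables hold estimated counts, as whole numbers, and TPM, which the authors' quantification divides by transcript length and scales to the library. Of the 30562 genes, 4367 had no symbol.

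Counts were tested with edgeR 4.0.16 (R 4.3.3; TMM, filterByExpr with a minimum count of 10, robust quasi-likelihood test, Benjamini-Hochberg adjustment over all genes tested, threshold 0.05). The side comparisons were fitted on all 14 libraries with the rat as a block, since both sides came from the same rat, and the time comparisons on the libraries of 1 side. The standard error is the log2 difference divided by the root of the F value. With limma 3.58.1 (log2 TPM plus a pseudocount, genes at 0.5 TPM in 3 libraries) and DESeq2 1.42.0 every comparison was repeated. Log2 CPM used a prior count of 2. Relative length is count over TPM, from genes with 20 counts in 3 libraries, and its trend was removed per library by lowess with span 0.3. The scripts were tested on simulated data.

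The members and lists were chosen with earlier results of these data known. Named were the 5 genes with the smallest p in each direction of each comparison, the 4 highest and lowest in level and in length, genes with a role of their own, and up to 3 genes of each list; of the genes so named, the text gives those its results turn on. Ndufa6 and the other called oxidative phosphorylation genes, Dap3, Ptcd3 and Gadd45gip1 were named after their values were seen. Rats carry the letters of the sample titles, which exchange C and D relative to the library names on both sides. Where nothing states separate extractions, p-values measure the spread between these samples.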

Additional observations from a re-analysis of the deposited data

Results flagged for a closer look

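Of 60 groups looked at for a single value far from the others, 3 had 1, where chance flags about 1 in 20. The groups held 4 libraries or rats, except 1 that held all the rats. Mrps17 ENSRNOG00000000926 had 2.762 TPM in the control library of rat C and 0.5822 to 0.8348 TPM in the other 8-week controls. Mrpl40 had 12.79 TPM in the surgical library of rat H and 10.36 to 10.75 TPM in the other 8-week surgical libraries. The median over the 74 genes of the difference, surgical less control, was 0.043 in rat C and -0.053 to -0.043 in the other 8-week rats; the surgical library of rat C also held the highest level of skeletal muscle markers, and the part of that in the value was not tested.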

How the results depend on the processing

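Of 55 results for single named genes, 16 changed sign in at least 1 setting. The cause was not tested for any change below. DESeq2 called 6 genes over both times, 44 at 6 weeks (2 of the 74), 4 at 8 weeks and 5 for the difference of side effects. For control time it called 3133 of 16346 genes (11 of the 74), and for surgical time 8. For control time, limma called 4 of the 74 and 3281 genes on log2(TPM + 1), and 0 and 14 on log2(TPM + 0.1); edgeR called 0 and 0 with the length trend removed, without rats B, C and H and without rats A and B, 16 genes with the neuronal covariate, and 0 to 19 of the 74 and 0 to 6388 genes with 1 rat left out. For surgical time limma called 5 genes with either pseudocount. Medians of the group (75 genes between the sides, 74 between times) on log2(TPM + 1) and log2(TPM + 0.1) were -0.069 and -0.071 (6 weeks), -0.132 and -0.136 (8 weeks), -0.094 and -0.095 (difference of side effects), 0.48 and 0.505 (control time) and 0.396 and 0.421 (surgical time). With the length trend removed they were -0.041, 0.043 and 0.131 for 6 weeks, difference and control time. Without rats B, C and H the 8-week median was -0.049, and without rats A and B the surgical time median was 0.02. With 1 rat left out, medians were -0.037 to 0.015 at 8 weeks and -0.167 to 0.009 for control time.

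Single genes turned as follows. Over both times, without rats B, C and H, Mrps5 was -0.045, Mrpl44 -0.152 and Mrpl45 -0.063, and without rats A and B Mrpl44 was -0.026; with 1 rat left out they ran -0.033 to 0.052, -0.06 to 0.076 and -0.037 to 0.074. At 6 weeks Mrps2 was -0.138 without rats B, C and H and -0.135 to 0.274 with 1 left out. At 8 weeks Mrpl45, Mrpl40 and Mrps12 were -0.019, -0.021 and -0.017 on log2(TPM + 1) and -0.02, -0.023 and -0.017 on log2(TPM + 0.1), Mrpl1 was 0.041 without rats B, C and H, and Mrps12 and Mrps28 ran -0.012 to 0.198 and -0.065 to 0.244 with 1 left out. For the difference of side effects, without rats B, C and H, Mrps2, Mrpl38, Mrps17 ENSRNOG00000000926 and Mrpl10 were 0.135, 0.13, 1.428 and 0.143, without rats A and B Mrps17 was 0.844, and with 1 left out they ran -0.335 to 0.074, -0.427 to 0.308, -0.528 to 0.624 and -0.145 to 0.11. Mrps33 was 0.065, 0.066 and 0.003 for control time (TPM with either pseudocount, length removed) and 0.047 and 0.048 for surgical time, where Mrpl54 was 0.114 and 0.115 (TPM).

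Samples of a rat pair by animal, so the replicate block is in the side fits; with no replicate block 2 genes were called at 6 weeks, none of the 74, and 0 of the 74 in the other side comparisons.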
